A study of Mus musculus with 18 samples.

Results

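The genes described here are the potassium channel genes of the mouse heart, chosen as every entry of the deposited count table whose symbol starts with Kcn. There were 95 such genes among the 23457 of the table. Levels in control hearts are given for all 95, and changes for the 36 whose mean count over the 18 hearts was 10 or more. All 36 entered the test, among 12281 genes. The symbol rule also takes in 2 entries that are not channel subunits, the noncoding RNA Kcnq1ot1 and Kcnrg.

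Potassium channels let potassium leave the cell and so end the action potential and hold the resting membrane near the potassium equilibrium. In the adult mouse ventricle repolarisation is fast and rests mainly on the transient outward current (Ito) and on slowly inactivating delayed rectifiers (IK,slow), while the strong inward rectifier (IK1) sets the resting potential. Each current is carried by pore-forming alpha subunits, often together with auxiliary subunits that change their gating or their delivery to the membrane. Several inward rectifiers need the membrane lipid PIP2, the substrate of phospholipase C, to open.

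RNA came from the ventricles of 18 male C57BL/6 mice of 17 weeks, 6 for each vector: rAAV6-blank, the control, which carries a promoter but encodes no protein, rAAV6-PLCb1a (PLCβ1a hearts) and rAAV6-PLCb1b (PLCβ1b hearts). All mice, the controls included, had received an adeno-associated virus vector of serotype 6 through the tail vein, and the delivered enzymes carried a FLAG tag. PLCβ1a and PLCβ1b are splice variants of phospholipase Cβ1, the enzyme downstream of Gq that cleaves PIP2, and the study asked whether weakened contraction by itself, which PLCβ1b brings about, evokes a response of the heart's transcripts, with PLCβ1a as a further control. The sample labels name both ventricles as the tissue, whereas the study's methods name the left ventricle.

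The hearts held 13246339 to 24155465 counts each, of which 3908354 to 7591558 fell on nuclear genes and the rest on mitochondrially encoded ones. Potassium channel genes took 0.149% to 0.160% of the nuclear counts of a heart, and 59 to 68 of them had at least 1 count. Plcb1, the gene delivered, ran from 5.43 to 6.89 CPM (counts scaled to the total of each heart) in blank hearts, from 17.8 to 29.2 in PLCβ1a hearts and from 23.2 to 70 in PLCβ1b hearts, so that every treated heart lay above every blank heart. The cardiomyocyte markers Myh6, Tnnt2, Actn2 and Ryr2 summed to between 11521 and 12901 CPM in each of the 18 hearts, whereas Snap25, a neuronal marker, was listed at 0 FPKM in all groups.

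The first question was which potassium channel genes the control ventricle expressed. FPKM values, which scale fragments by exon length and by the mapped total so that genes of different length can be compared, averaged at least 1 in the 6 blank hearts for 20 of the 95 genes. A further 57 had a lower mean above 0, and 18 were listed at 0 in every blank heart. The 10 highest genes held 77.3% of the summed FPKM of all 95. Inward rectifiers took 36.8% of that sum with 15 genes, voltage-gated alpha subunits 28.1% with 40, auxiliary subunits 18.3% with 16, 2-pore-domain channels 12.5% with 14 and calcium- or sodium-activated channels 3.68% with 8.

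**Figure D1:**
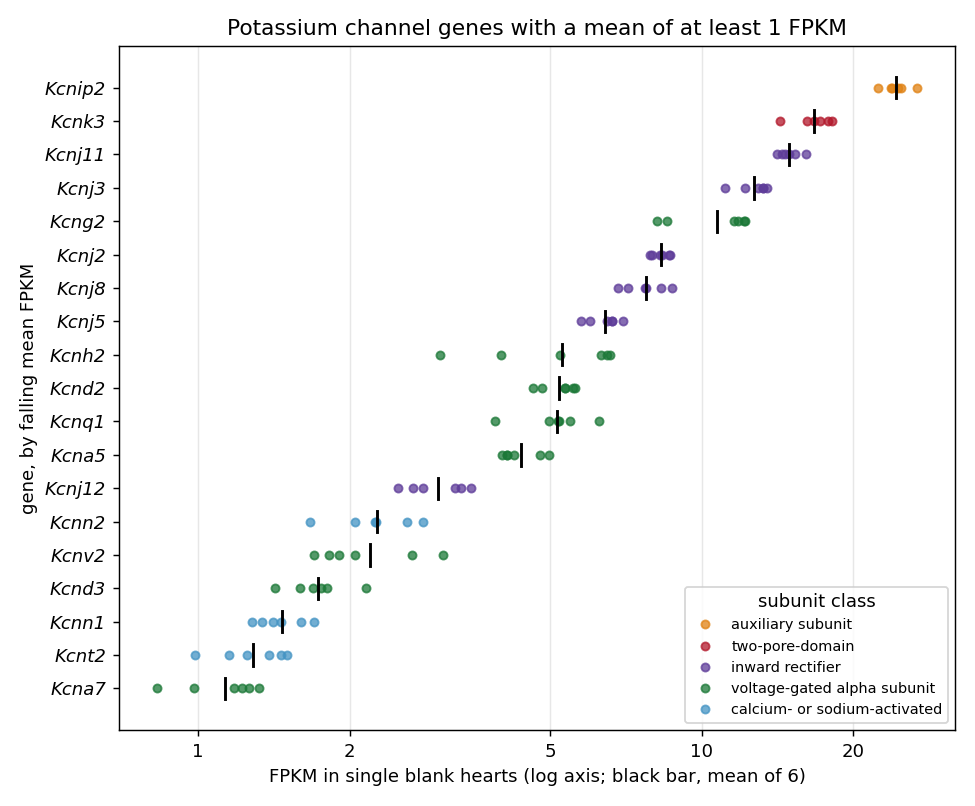
FPKM of 19 of the 20 potassium channel genes that averaged 1 FPKM or more in blank hearts. Each point is 1 of 6 hearts on a log axis, the black bar is the mean, and colour gives the subunit class. Kcnip2 lies highest, at 22.4 to 26.8 FPKM, and Kcng2, Kcnh2 and Kcnv2 spread over a wider range than most of their neighbours.

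Kcnip2 had the highest level of the 95 genes. It encodes KChIP2, the cytosolic auxiliary subunit that binds Kv4 channels and is needed for the fast transient outward current, and it lies on the minus strand of chromosome 19 of mm10, from 45792346 to 45816063. Its level in blank hearts was 24.4 FPKM ± 1.45 (SD, n = 6), with a lowest heart of 22.4, a median of 24.2 and a highest of 26.8. No blank heart had less Kcnip2 than any blank heart had of the next gene, Kcnk3.

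The pore-forming partners of KChIP2 were present at lower levels. Kcnd2, which encodes Kv4.2 (chromosome 6, 21216109 to 21729805), averaged 5.21 FPKM ± 0.402 (SD, n = 6) and ran from 4.63 to 5.61. Kcnd3, which encodes Kv4.3, averaged 1.73 FPKM ± 0.244 (SD, n = 6) and ran from 1.42 to 2.15, so that every blank heart had less Kcnd3 than Kcnd2. Kcna4, the Kv1.4 channel of the slow transient outward current, averaged 0.290 FPKM ± 0.0694 (SD, n = 6), with 13 to 28 counts in a blank heart. Kcna4 was thus the lowest of the transient outward current alpha subunits on the list.

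Of the delayed rectifiers, Kcna5 (Kv1.5, chromosome 6, 126532551 to 126535555) carries the component of IK,slow named IK,slow1, and its level was 4.37 FPKM ± 0.402 (SD, n = 6). Kcnh2 (the ERG channel of the rapid delayed rectifier IKr, chromosome 5, 24319589 to 24351604) was at 5.27 FPKM ± 1.48 (SD, n = 6) and ran from 3.02 to 6.57, a coefficient of variation of 28.0%. Kcnq1, the alpha subunit of the slow delayed rectifier IKs, was at 5.16 FPKM ± 0.767 (SD, n = 6). 

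The auxiliary subunits of the delayed rectifiers were low. Kcne1, the partner of Kcnq1 in IKs, averaged 0.487 FPKM ± 0.102 (SD, n = 6), with 17 to 31 counts in a blank heart. Kcne2, a partner proposed for Kcnh2, had 1 count over all 18 hearts and 0 in the blank hearts. With 33201695 nuclear counts in the 6 blank hearts together, a count of 0 allows up to 0.0904 CPM on the scale of nuclear counts, a limit for counting error only. The silent Kv subunits Kcng2 (Kv6.2) and Kcnv2 (Kv8.2), which form channels only together with other Kv subunits, stood at 10.7 FPKM ± 1.87 (SD, n = 6) and 2.20 FPKM ± 0.541 (SD, n = 6). Kcng2 was the highest alpha subunit of the voltage-gated class, with 4 blank hearts close to its highest value of 12.2 and 2 near its lowest of 8.16.

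Inward rectifiers filled 5 of the 10 highest places. Kcnj11 (Kir6.2, chromosome 7, 46097123 to 46100764), the pore of the sarcolemmal ATP-sensitive channel, was at 14.9 FPKM ± 0.735 (SD, n = 6), and Kcnj8 (Kir6.1), the pore best known from vascular smooth muscle and pericytes, at 7.74 FPKM ± 0.704 (SD, n = 6). The G protein-gated pair of the acetylcholine-activated current IK,ACh, best known from atrial myocytes, was also measured, with Kcnj3 (GIRK1) at 12.7 FPKM ± 0.927 (SD, n = 6) and Kcnj5 (GIRK4) at 6.41 FPKM ± 0.450 (SD, n = 6). Of the IK1 subunits, Kcnj2 (Kir2.1, chromosome 11, 111066164 to 111076825) was at 8.28 FPKM ± 0.316 (SD, n = 6), with hearts from 7.89 to 8.64. Kcnj12 (Kir2.2) was at 3.0 FPKM ± 0.400 (SD, n = 6), below Kcnj2 in each blank heart, and Kcnj4 (Kir2.3) at 0.118 FPKM ± 0.0834 (SD, n = 6) on 0 to 8 counts.

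Among the remaining classes, Kcnk3 (TASK-1, a 2-pore-domain background channel, chromosome 5, 30588170 to 30625270) was the second highest gene, at 16.7 FPKM ± 1.38 (SD, n = 6). Kcnk2 (TREK-1), which opens on stretch, was at 0.368 FPKM ± 0.0801 (SD, n = 6). The small-conductance calcium-activated channels Kcnn2 (SK2), Kcnn1 (SK1) and Kcnn3 (SK3) averaged 2.27 FPKM ± 0.398, 1.46 FPKM ± 0.158 and 0.135 FPKM ± 0.0260 (SD, n = 6 for each). Kcna7 (Kv1.7) was at 1.13 FPKM ± 0.188, Kcna1 (Kv1.1) at 0.354 FPKM ± 0.0926 and Kcna2 (Kv1.2) at 0.197 FPKM ± 0.0205 (SD, n = 6 for each).

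The ranges of many neighbours in this order overlapped between hearts. The values of single blank hearts were separate between Kcnip2 and Kcnk3 and between Kcnj11 and Kcnj3. The other pairs of neighbours from Kcnip2 down to Kcna5 overlapped. Kcnj3 was above Kcng2, Kcnj8 above Kcnj5 and Kcnj5 above Kcnh2 in 6 of 6 hearts, Kcnh2 was above Kcnd2 in 3 of 6, and in the other overlapping pairs the higher gene was above the next in 5 of 6, each counted within single hearts. The 10 highest genes were the same 10 when counts were divided by exon length and by the nuclear counts of each heart.

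Kcnq1ot1 shows why length matters for these levels. This long noncoding RNA, transcribed from within Kcnq1 and known from the imprinting of that locus, had a mean of 1019 counts over the 18 hearts, more than any other Kcn entry. Its annotated exon of 83437 bases brought this to 0.817 FPKM ± 0.118 (SD, n = 6). Kcnj15 (Kir4.2), with 10 to 19 counts in a blank heart, was at 0.179 FPKM ± 0.0695 (SD, n = 6), and Kcnab1, a cytosolic Kvβ subunit, at 0.274 FPKM ± 0.0987 (SD, n = 6).

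The 59 genes with a mean count under 10 had a highest mean of 9.61 counts, that of Kcnma1, the large-conductance calcium-activated channel. Kcnma1 passed the filter on low counts but not the limit set for reporting a change. Of the 59, 54 had at least 1 count in some heart. The other 5, Kcna10, Kcnj1, Kcnk16, Kcnk18 and Kcnmb3, had 0 counts in all 18 hearts, and none of them belongs to a ventricular current listed here.

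The promoters of 3 genes are shown, that of Kcnip2 as the highest gene and those of Kcna4 and Kcna5 as the genes with the lowest unadjusted p in either direction between PLCβ1b and blank hearts. Each window is RefSeq sequence of GRCm38.p6 from 250 bases before to 50 after the start of the gene, read 5′ to 3′ on the strand of the gene, with CG dinucleotides in capitals.
Kcnip2, chr19:45816014-45816313, minus strand: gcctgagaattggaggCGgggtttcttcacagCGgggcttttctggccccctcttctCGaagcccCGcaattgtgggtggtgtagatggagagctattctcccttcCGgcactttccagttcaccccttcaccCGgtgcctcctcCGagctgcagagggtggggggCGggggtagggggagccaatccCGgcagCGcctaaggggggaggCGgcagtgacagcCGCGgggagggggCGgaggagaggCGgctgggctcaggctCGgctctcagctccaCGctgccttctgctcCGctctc
Kcna4, chr2:107290339-107290638, plus strand: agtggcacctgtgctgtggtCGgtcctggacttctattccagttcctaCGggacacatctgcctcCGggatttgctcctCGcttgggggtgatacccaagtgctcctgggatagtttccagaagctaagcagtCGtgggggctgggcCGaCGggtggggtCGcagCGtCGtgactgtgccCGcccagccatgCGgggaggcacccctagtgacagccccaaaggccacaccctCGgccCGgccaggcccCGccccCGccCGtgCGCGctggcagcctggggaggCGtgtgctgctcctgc
Kcna5, chr6:126535506-126535805, minus strand: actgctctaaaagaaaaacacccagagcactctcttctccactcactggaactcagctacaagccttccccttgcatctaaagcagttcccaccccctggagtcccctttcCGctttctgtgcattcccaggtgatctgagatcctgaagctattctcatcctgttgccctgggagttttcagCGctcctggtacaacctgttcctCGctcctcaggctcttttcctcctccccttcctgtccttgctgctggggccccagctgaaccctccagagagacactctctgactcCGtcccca

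The windows of Kcnip2, Kcna4 and Kcna5 held 18, 20 and 4 CG dinucleotides, against a median of 7 over 32851 windows of the same length. At most as many were found in 71.9%, 75.2% and 38.0% of all windows, respectively. Only 70 of the 95 genes matched a window by symbol, and 24 of the 36 with a mean count of 10 or more, too few for a comparison over the set.

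The second question was whether the vectors changed any of these genes. Counts were compared by edgeR's quasi-likelihood test, all 3 vectors being fitted together, with Benjamini-Hochberg adjustment over all 12281 genes and a call at an FDR below 0.1. Of the 36 potassium channel genes, 0 were called between PLCβ1b and blank hearts, against 12 of all genes tested (0.0977%). Between PLCβ1a and blank hearts 0 were called, against 17 of all genes (0.138%). Between PLCβ1b and PLCβ1a hearts 0 were called, as for all genes (0%), and between both PLC groups together and blank hearts 0, against 40 (0.326%). The lowest FDR of a potassium channel gene in the 4 comparisons was 0.564, 0.553, 1.0 and 0.525. At shares of calls this low in the whole table, 0 of 36 does not set these genes apart.

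At an unadjusted p under 0.05 the counts were also near or under those of all genes. Of the 36 genes, 2 (5.56%) passed between PLCβ1b and blank hearts, against 7.41% of all genes tested. Between PLCβ1a and blank hearts 1 of 36 (2.78%) passed, against 8.58%. Between PLCβ1b and PLCβ1a hearts 1 of 36 (2.78%) passed, against 4.42%, and for both PLC groups against blank 2 (5.56%), against 9.25%. In the same order of comparisons DESeq2 gave 2, 0, 0 and 1 and edgeR's exact test 2, 1, 0 and 1, and both called 0 at an FDR below 0.1. Groups of single hearts were without overlap in CPM for 0 of 36 genes in each comparison of 2 groups, against 0.480% of all genes for PLCβ1b and blank hearts, 0.594% for PLCβ1a and blank hearts and 0.179% for PLCβ1b and PLCβ1a hearts.

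The size of change that the data leave room for was small for the well-counted genes. In PLCβ1b against blank hearts the median log2 fold change of the 36 genes was 0.03, with 24 above 0 and 12 below, against a median of -0.00 over all genes. Above 0 were thus 66.7% of the 36 and 49.6% of all genes, a difference that was not tested. The median size of change, regardless of sign, was 0.09 for the 36 and 0.07 for all genes. The 95% interval lay within a 1.5-fold change either way for 29 of the 36. In PLCβ1a against blank hearts the median was 0.01, with 19 above 0 and 17 below (52.8% above 0, against 49.4% of all genes), and the interval lay within 1.5-fold for 25. In PLCβ1b against PLCβ1a hearts the interval lay within 1.5-fold for 28. The intervals that reached further were mostly those of genes with few counts, such as Kcna4, Kcnj15, Kcne1 and Kcnab1. In bulk tissue such as this, fewer cells of a type and less RNA per cell cannot be told apart.

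**Figure D2:**
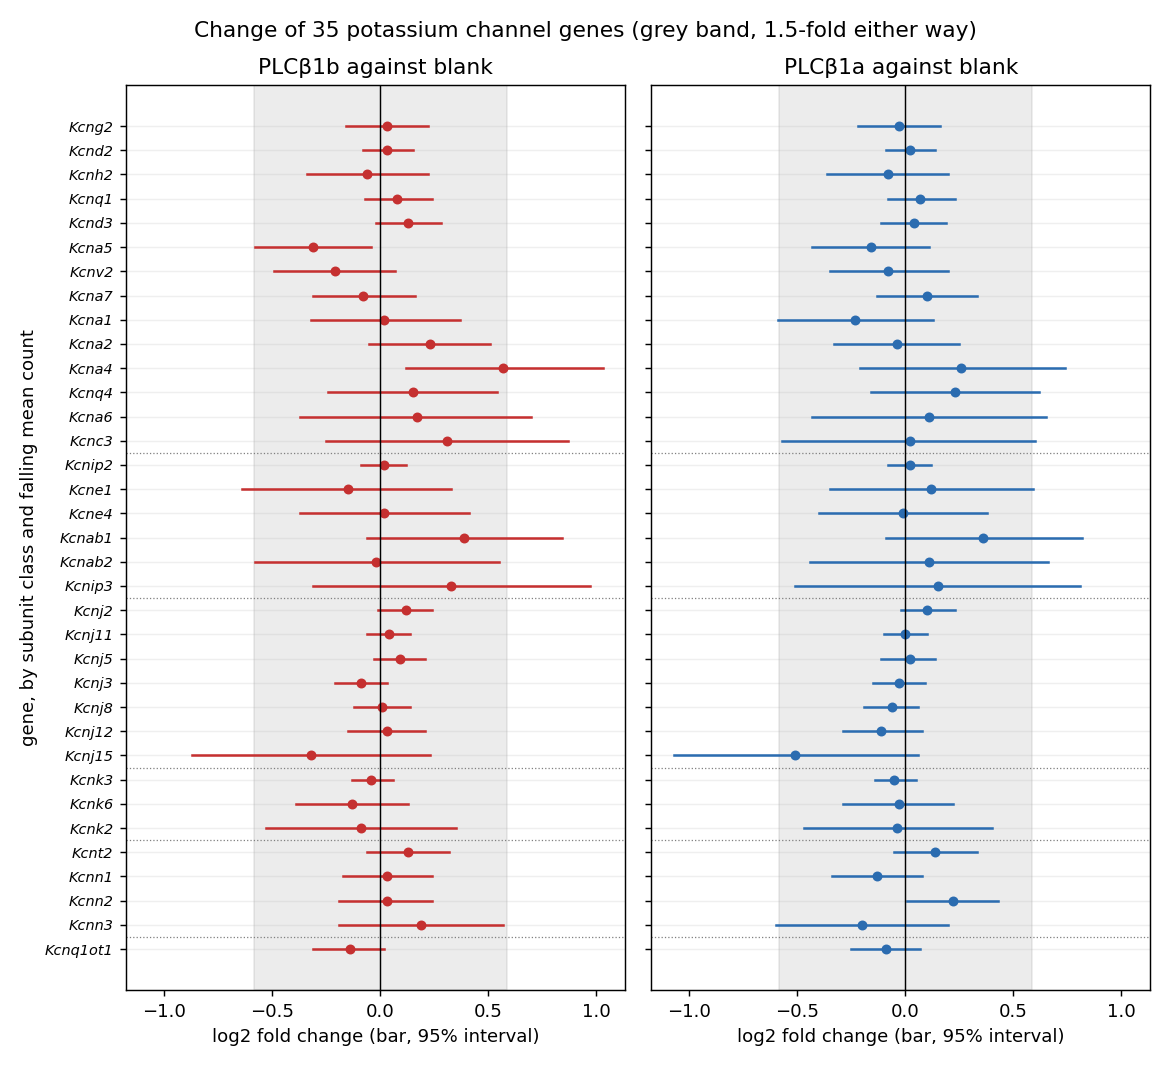
Log2 fold change of 35 of the 36 potassium channel genes with a mean count of 10 or more, for PLCβ1b (left) and PLCβ1a (right) against the same 6 blank hearts. Points are estimates of edgeR's quasi-likelihood fit and bars are 95% intervals. Dotted lines divide the subunit classes, in the order of voltage-gated alpha, auxiliary, inward rectifier, 2-pore-domain, calcium- or sodium-activated and noncoding, and the grey band marks 1.5-fold either way. The interval excluded 0 for Kcna4 and Kcna5 on the left and for Kcnn2 on the right.

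Of the transient outward current genes, the subunits of the fast component differed little between groups. Kcnip2 ran from 41.9 to 45.3 CPM (median 43.6) in blank hearts, from 37.4 to 48.2 (median 44.9) in PLCβ1a hearts and from 39.6 to 47.6 (median 44.8) in PLCβ1b hearts. The groups overlapped, with wider ranges in the PLC groups: 3 PLCβ1b and 3 PLCβ1a hearts lay above all blank hearts and 2 and 1, respectively, below all of them. The log2 fold change was 0.02 (95% interval -0.09 to 0.12) in PLCβ1b and 0.02 (-0.08 to 0.12) in PLCβ1a hearts. Kcnd2 gave 0.03 (-0.08 to 0.15) and 0.02 (-0.09 to 0.14). Kcnd3 gave 0.13 (-0.02 to 0.28) in PLCβ1b hearts, where 10.3 CPM ± 0.510 (SD, n = 6) compared with 9.41 ± 0.785 in blank hearts, and 0.04 (-0.11 to 0.19) in PLCβ1a hearts. For Kcnd3 in PLCβ1b hearts the exact permutation test gave an unadjusted p of 0.048, whereas edgeR's FDR was 0.734.

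Kcna4, the alpha subunit of the slow transient outward current, had the lowest p of the 36 genes in PLCβ1b hearts. It ran from 0.750 to 1.61 CPM (median 1.24) in blank hearts, from 0.880 to 2.21 (median 1.31) in PLCβ1a hearts and from 0.950 to 2.61 (median 1.73) in PLCβ1b hearts. Of the PLCβ1b hearts, 3 lay above every blank heart, and the groups overlapped. The log2 fold change was 0.57 (SE 0.22, 95% interval 0.12 to 1.03) with an unadjusted p of 0.0153 and an FDR of 0.564 by edgeR's quasi-likelihood test. The exact permutation test gave p = 0.061. In PLCβ1a hearts the log2 fold change was 0.26 (-0.21 to 0.74). For both PLC groups together it was 0.42, with an unadjusted p of 0.0443 and an FDR of 0.525 by edgeR's quasi-likelihood test. The mean count was 26.6, so that these values rest on few reads. Without PLCβ1b heart 17 the log2 fold change of PLCβ1b against blank hearts fell to 0.42 and its unadjusted p rose past 0.05.

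Kcna5, the alpha subunit of IK,slow1, was the gene with the lowest p among those below blank in PLCβ1b hearts. It ran from 9.63 to 12.7 CPM (median 10.3) in blank hearts, from 7.80 to 10.5 (median 9.91) in PLCβ1a hearts and from 5.65 to 11.2 (median 9.28) in PLCβ1b hearts. Of the PLCβ1b hearts, 4 lay below every blank heart, while the other 2 lay within the blank range. The log2 fold change was -0.31 (SE 0.13, 95% interval -0.58 to -0.04), with an unadjusted p of 0.0282 and an FDR of 0.605 by edgeR's quasi-likelihood test. The exact permutation test gave p = 0.078. In PLCβ1a hearts it was -0.16 (-0.43 to 0.11), and PLCβ1b against PLCβ1a gave -0.15 (-0.43 to 0.12). The unadjusted p in PLCβ1b hearts rose past 0.05 without blank heart 26, without blank heart 30 and without PLCβ1b heart 6.

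**Figure D3:**
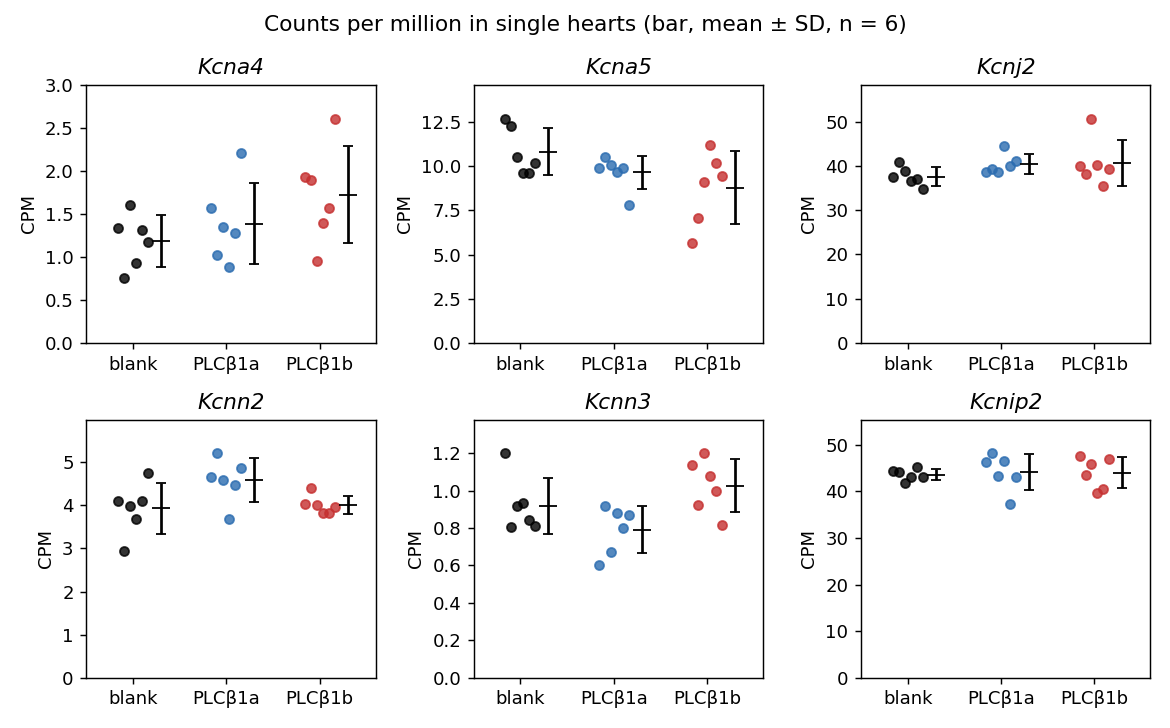
CPM of 6 potassium channel genes in each heart. Points are single hearts, and the black bar to the right of each group is the mean with its SD over 6 hearts. Kcna4, Kcna5, Kcnn2, Kcnn3 and Kcnj2 each had an unadjusted p under 0.05 in some comparison, and Kcnip2 is shown as the gene with the highest FPKM. The groups overlap in every panel.

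The other delayed rectifier genes stayed uncalled. Kcnh2 gave a log2 fold change of -0.06 (95% interval -0.34 to 0.22) in PLCβ1b and -0.08 (-0.36 to 0.20) in PLCβ1a hearts. Kcnq1 gave 0.08 (-0.07 to 0.24) and 0.07 (-0.08 to 0.23), while Kcne1, on a mean of 23.3 counts, gave -0.15 (-0.64 to 0.33) and 0.12 (-0.35 to 0.59). The silent subunits gave 0.03 (-0.16 to 0.22) and -0.03 (-0.22 to 0.16) for Kcng2, and -0.21 (-0.49 to 0.07) and -0.08 (-0.35 to 0.20) for Kcnv2. Among the other Kv1 genes, Kcna2 gave 0.23 (-0.05 to 0.51) in PLCβ1b and -0.04 (-0.33 to 0.25) in PLCβ1a hearts. Kcna7 gave -0.08 (-0.31 to 0.16) and 0.10 (-0.13 to 0.33), and Kcna1 gave 0.02 (-0.32 to 0.37) and -0.23 (-0.59 to 0.13).

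Of the inward rectifiers, Kcnj2 ran from 34.8 to 40.9 CPM (median 37.2) in blank hearts, from 38.6 to 44.6 (median 39.7) in PLCβ1a hearts and from 35.4 to 50.7 (median 39.6) in PLCβ1b hearts. Above all blank hearts lay 2 PLCβ1a hearts and 1 PLCβ1b heart. The exact permutation test against blank gave p = 0.045 for PLCβ1a and p = 0.212 for PLCβ1b hearts, both unadjusted. The log2 fold change was 0.12 (95% interval -0.01 to 0.24) in PLCβ1b and 0.10 (-0.02 to 0.23) in PLCβ1a hearts. For both PLC groups together it was 0.11 (SE 0.05), a 1.08-fold difference, with an unadjusted p of 0.0467 and an FDR of 0.528 by edgeR's quasi-likelihood test. The other IK1 subunit, Kcnj12, gave 0.03 (-0.15 to 0.21) and -0.11 (-0.29 to 0.08).

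The intervals of the ATP-sensitive and acetylcholine-activated pores were among the narrowest. Kcnj11 gave a log2 fold change of 0.04 (95% interval -0.06 to 0.14) in PLCβ1b and 0.00 (-0.10 to 0.10) in PLCβ1a hearts, and Kcnj8 gave 0.01 (-0.12 to 0.14) and -0.06 (-0.19 to 0.06). Kcnj3 gave -0.09 (-0.21 to 0.03) and -0.03 (-0.15 to 0.09), and Kcnj5 gave 0.09 (-0.03 to 0.21) and 0.02 (-0.11 to 0.14). Kcnj15, on a mean of 11.4 counts, gave -0.32 (-0.87 to 0.23) and -0.51 (-1.07 to 0.06), the widest of the class. The background channel Kcnk3 gave -0.04 (-0.13 to 0.06) and -0.05 (-0.14 to 0.05), and the stretch-activated Kcnk2 -0.09 (-0.53 to 0.35) and -0.04 (-0.47 to 0.40).

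The small-conductance channels held the remaining intervals that excluded 0. Kcnn2 ran from 2.94 to 4.76 CPM (median 4.04) in blank hearts, from 3.68 to 5.21 (median 4.64) in PLCβ1a hearts and from 3.83 to 4.41 (median 3.98) in PLCβ1b hearts. Against blank its log2 fold change was 0.22 (SE 0.10, 95% interval 0.01 to 0.43) in PLCβ1a hearts, with an unadjusted p of 0.0410 and an FDR of 0.553 by edgeR's quasi-likelihood test, and 0.03 (-0.19 to 0.24) in PLCβ1b hearts. The exact permutation test gave p = 0.069 for PLCβ1a against blank hearts and p = 0.039 for PLCβ1b against PLCβ1a hearts, both unadjusted. Kcnn3 ran from 0.604 to 0.919 CPM in PLCβ1a hearts and from 0.816 to 1.20 in PLCβ1b hearts, and 5 of the 6 PLCβ1b hearts lay above all PLCβ1a hearts. PLCβ1b against PLCβ1a gave 0.39 (SE 0.19, 95% interval 0.00 to 0.78) with an unadjusted p of 0.0489 and an FDR of 1.0, and the exact permutation test p = 0.015. Kcnn3 had a mean count of 16.7, and in blank hearts it lay between 0.808 and 0.934 CPM in 5 hearts and at 1.20 CPM in blank heart 26. Kcnn1 gave 0.03 (-0.17 to 0.24) and -0.13 (-0.34 to 0.08) against blank. Between PLCβ1b and PLCβ1a hearts Kcna2 gave 0.27 (-0.01 to 0.55), Kcnn1 0.16 (-0.04 to 0.37), Kcnn2 -0.19 (-0.40 to 0.01), Kcna7 -0.18 (-0.40 to 0.05) and Kcne1 -0.27 (-0.75 to 0.20), none of them called.

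Of the remaining genes named, Kcnab1, on a mean of 15.5 counts, gave 0.39 (95% interval -0.06 to 0.84) in PLCβ1b and 0.36 (-0.09 to 0.82) in PLCβ1a hearts. Kcnq1ot1 gave -0.14 (-0.31 to 0.02) and -0.09 (-0.25 to 0.07). By class, the median log2 fold change in PLCβ1b against blank hearts was 0.06 for 15 voltage-gated alpha subunits, 0.02 for 6 auxiliary subunits, 0.03 for 7 inward rectifiers, -0.09 for 3 2-pore-domain channels and 0.08 for 4 calcium-activated or sodium-activated channels. In PLCβ1a hearts the same medians were 0.02, 0.11, -0.03, -0.04 and 0.01.

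Genes outside the family that work with these channels were listed beside them, 16 in all, of which 10 entered the test. Abcc9 and Abcc8, the sulphonylurea receptor subunits of the ATP-sensitive channel, stood at 37.2 FPKM ± 2.30 and 3.18 FPKM ± 0.379 (SD, n = 6) in blank hearts and gave log2 fold changes of 0.05 (95% interval -0.02 to 0.13) and 0.07 (-0.06 to 0.21) in PLCβ1b hearts. Dpp6, a transmembrane partner of Kv4 channels, was near 0, at 0.00453 FPKM ± 0.00705 (SD, n = 6). Of the 10, 1 was called. Irx3, a homeobox factor known for its part in the ventricular conduction system, was higher in PLCβ1a than in blank hearts (log2 fold change 0.49, SE 0.11, FDR 0.0566 by edgeR), and not called in PLCβ1b hearts (0.45, SE 0.11, FDR 0.125). For both PLC groups together it gave 0.47 (FDR 0.0200).

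None of the other 9 was called. Klf15, a Krüppel-like factor known to drive the daily rhythm of Kcnip2 in mouse heart, ran from 17.3 to 21.7 CPM in blank hearts, from 14.2 to 19.9 in PLCβ1a hearts and from 14.5 to 20.5 in PLCβ1b hearts. The log2 fold change of Klf15 was -0.28 (95% interval -0.45 to -0.12) in PLCβ1b and -0.22 (-0.39 to -0.06) in PLCβ1a hearts, with an FDR of 0.297 and 0.38 by edgeR, so that it was not called. Across the 18 hearts the CPM of Kcnip2 and Klf15 gave a Pearson r of -0.16 (permutation p = 0.53) and a Spearman rho of -0.20 (permutation p = 0.42). Kcnd2 and Irx3 gave r = 0.16 (permutation p = 0.52) and rho = 0.03 (permutation p = 0.92), and Kcnd2 and Irx5 gave r = -0.06 (permutation p = 0.82) and rho = -0.10 (permutation p = 0.71).

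Those were 3 of 7 relations computed together. The others set channel genes known from other cells beside the markers of those cells. The summed CPM of the atrial markers Myl4, Myl7 and Sln ran from 14.5 to 19.6 in blank hearts, from 7.71 to 30.7 in PLCβ1a hearts and from 8.54 to 17.5 in PLCβ1b hearts. Kcnj3 and this sum gave r = -0.20 (permutation p = 0.43) and rho = -0.07 (permutation p = 0.79). Kcnj5 gave r = 0.16 (permutation p = 0.51) and rho = 0.14 (permutation p = 0.58), and Kcnk3 r = 0.33 (permutation p = 0.19) and rho = 0.35 (permutation p = 0.16). Kcnj8 and the summed smooth muscle and pericyte markers Acta2, Myh11, Tagln, Rgs5 and Pdgfrb gave r = -0.08 (permutation p = 0.75) and rho = -0.08 (permutation p = 0.77). Without the 2 hearts farthest from the median of the companion, r lay between -0.18 and 0.27 over the 7 relations. After Benjamini-Hochberg adjustment over the 7, the p of r lay between 0.743 and 0.819 and that of rho was 0.923.

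The third question was how the genes varied between hearts of the same group. The biological coefficient of variation fitted by edgeR was 0.126 for Kcnv2, 0.125 for Kcnh2 and 0.124 for Kcna5, at the 88.5th, 88.2nd and 87.8th percentile of all genes tested. It was 0.0526 for Kcnj8, 0.0544 for Kcnk3 and 0.0546 for Kcnj11, against a median of 0.0662 over all genes tested. The highest heart of Kcnk3 was 1.16 times its lowest in blank, 1.16 times in PLCβ1a and 1.19 times in PLCβ1b hearts. The same ratios were 1.96, 1.32 and 1.20 for Kcnh2 and 1.32, 1.35 and 1.98 for Kcna5.

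Kcnh2 was lower in hearts with more Arntl, which encodes the core clock activator BMAL1. This relation was chosen after the values were seen, and the time of day at which each heart was taken is not given in the sources used here. Kcnh2 was lowest in blank heart 30, at 11.5 CPM, where Arntl was highest, at 13.3 CPM. It was highest in blank heart 36, at 22.7 CPM, where Arntl was lowest, at 0.989 CPM. Arntl ran from 0.989 to 5.27 CPM in the 17 other hearts. Over the 18 hearts the Pearson r was -0.79 (permutation p = 3e-05) and the Spearman rho -0.79 (permutation p = 0.00016), with adjusted p of 0.00108 and 0.00576 over the 36 genes. The adjusted permutation p of rho was 0.0544 on FPKM and 0.0704 on CPM centred within groups, above 0.05 in both. Without blank heart 30 and PLCβ1b heart 17, the hearts farthest from the median of Arntl, r was -0.76.

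Within the groups the relation was uneven. The blank hearts gave r = -0.91 (exact permutation p = 0.0014 over 720 arrangements) and rho = -1.0 (exact p = 0.0028). The PLCβ1b hearts gave r = -0.76 (exact p = 0.071) and rho = -0.54 (exact p = 0.3), and the PLCβ1a hearts r = -0.45 (exact p = 0.37) and rho = -0.37 (exact p = 0.5), so that the relation did not pass 0.05 within either PLC group. Whether it differed between groups was not tested. With Dbp, a clock output gene that runs opposite to Arntl, Kcnh2 gave r = 0.81 (permutation p = 0.00011) and rho = 0.73 (permutation p = 0.00071), and r = 0.62 without blank hearts 26 and 30. With Per1, Per2 and Nr1d1, r was 0.48, 0.39 and 0.08, with adjusted permutation p of 0.0719, 0.130 and 0.740 over the 5 clock genes. Without the 2 hearts farthest from the median of each of these, r was 0.01, 0.35 and -0.62, so that the sign with Nr1d1 turned.

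**Figure D4:**
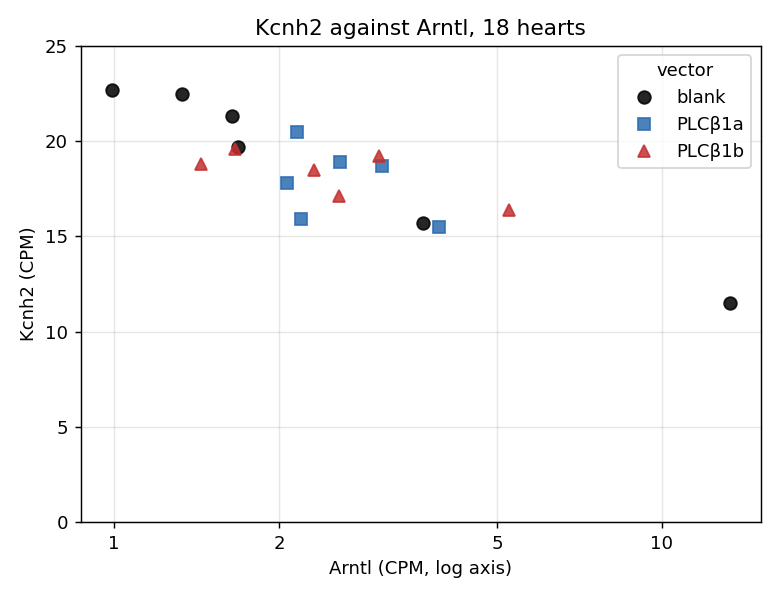
Kcnh2 against Arntl, both in CPM, in each of the 18 hearts, with Arntl on a log axis and symbols for the vector. Kcnh2 falls from 22.7 to 11.5 CPM as Arntl rises from 0.989 to 13.3 CPM, and blank hearts lie at both ends.

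Of the other 35 genes, Kcng2 also passed with Arntl on r, at -0.59 (permutation p = 0.001, adjusted p = 0.0182), with an adjusted permutation p of 0.0751 on rho of -0.65. Without the 2 hearts farthest from the median of Arntl, its r was -0.67. For Kcnq1ot1 r was 0.83 (permutation p = 0.019, adjusted p = 0.105), but it was 0.17 without those 2 hearts, so that the uncentred relation rests on them. On values centred within groups Kcnq1ot1 gave r = 0.84 (adjusted permutation p = 0.0269), and 0.45 without those hearts. Kcna1 (r = 0.70) and Kcnn2 (r = -0.64) also passed when centred, with adjusted permutation p of 0.0273 and 0.0489. Without those hearts their centred r was 0.34 for Kcna1 and -0.41 for Kcnn2. None of these 3 passed on rho, where the adjusted permutation p was 0.190 for Kcnq1ot1, 0.267 for Kcna1 and 0.241 for Kcnn2.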

How the data were processed

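Total RNA of 18 hearts, 6 per vector, was depleted of ribosomal RNA and sequenced as strand-specific read pairs. The authors aligned the reads to mm10 with TopHat2 2.0.10, per the labels, and deposited HTSeq counts per gene (raw, not normalized) and a table of FPKM; the program behind the FPKM is not given in the sources used here, although the submitters' processing notes also list Cufflinks 2.1. HTSeq was run in union mode and by strand, per the study's methods. Gene positions and exon lengths come from the deposited annotation (mm10).

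Counts were scaled by TMM and filtered with filterByExpr (minimum count 10, minimum total 15), which left 12281 genes. They were tested with edgeR 4.0.16 (R 4.3.3), quasi-likelihood F test with robust estimation in 1 model of the 3 groups, with Benjamini-Hochberg adjustment over all genes and a call at an FDR below 0.1. CPM are TMM-scaled and include mitochondrial counts. Single values were compared by two-sided exact permutation tests (924 arrangements, smallest p 0.0022) and relations by 100000 permutations. Alternatives were DESeq2 1.42.0, edgeR's exact test, limma 3.58.1 on log2(FPKM + 0.1) and log2(FPKM + 1), upper-quartile scaling, other filters, and each heart left out. Scripts were tested on simulated counts. Python 3.11.15 was used for the rest.

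The genes and lists were chosen with earlier results of these data known. Genes were named where they belong to a ventricular current, are among the 10 highest in blank hearts, or have 1 of the 3 lowest p in a direction in a comparison. A direction is stated only where the 95% interval excludes 0 or the gene is called. Each heart is a separate mouse. Of the 9 relations planned, 2 with low-count genes (Kcnmb1, Kcnma1) were left out. 1 gene of the rule is not reported here by name.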

Additional observations from a re-analysis of the deposited data

Results flagged for a closer look

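Among the 36 potassium channel genes, each of the 3 groups of 6 hearts was searched for a heart whose gap to its nearest neighbour, as a share of the whole range of the group, was above Dixon's 95% critical value. Of 108 groups, 8 (7.41%) held such a heart, and chance gives about 5%. Blank heart 26 was low in Kcnk3, at 46.8 CPM against 52.3 to 54.4 in the other blank hearts, and high in Kcnn3, at 1.20 against 0.808 to 0.934. Blank heart 30, which stood apart in Arntl, was high in Kcnq1ot1, at 76.7 CPM against 51.9 to 60.3. PLCβ1a heart 21 was low in Kcna5, at 7.80 CPM against 9.68 to 10.5, and PLCβ1a heart 14 was high in Kcnk6, at 3.12 against 2.1 to 2.41.

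Of the PLCβ1b hearts, heart 6 was high in Kcnab1, at 1.23 CPM against 0.753 to 0.924, and in Kcnn2, at 4.41 against 3.83 to 4.03. PLCβ1b heart 8 was high in Kcnj2, at 50.7 CPM against 35.4 to 40.2, on 1014 counts. The technical or biological sources of these single values were not tested.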

How the results depend on the processing

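No potassium channel gene was called under any of the 28 or 29 alternatives run per comparison, among them DESeq2, edgeR's exact test, upper-quartile scaling, other filters, limma on log2 FPKM, a fit without robust estimation (added after seeing the data) and each heart left out in turn. The lowest FDR of any of the 36 genes in any of them was 0.321, for Kcna4 in PLCβ1b against blank hearts without PLCβ1b heart 8. With each heart left out, the number called was 0 throughout, and the number with an unadjusted p under 0.05 ran from 1 to 5 for PLCβ1b against blank, from 0 to 2 for PLCβ1a against blank, from 0 to 4 for PLCβ1b against PLCβ1a and from 0 to 4 for both against blank. No gene whose interval excluded 0 changed sign.

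The unadjusted p of Kcna4 in PLCβ1b hearts stayed under 0.05 in 17 of 18 fits with 1 heart removed and in 8 of 10 other settings, the exceptions being limma on log2 FPKM with 0.1 or 1 added. That of Kcna5 did so in 15 of 18 and 9 of 10, that of Kcnn2 in PLCβ1a hearts in 12 of 18 and 6 of 10, that of Kcnn3 in 6 of 18 and 5 of 10, and that of Kcnj2 for both PLC groups in 8 of 18 and 4 of 9. For both PLC groups together, that of Kcna4 stayed under 0.05 in 9 of 18 and 4 of 9. The causes were not tested. The r of Kcnh2 and of Kcng2 with Arntl kept its sign and its adjusted p under 0.05 on log2 CPM, on FPKM and centred within groups. The adjusted p of rho for Kcnh2 did not, at 0.0544 on FPKM and 0.0704 centred, and on log2 CPM Kcna6 passed as well (r = -0.64, adjusted p = 0.0491). None of the 7 other relations passed on FPKM or on centred values either, where the lowest adjusted p was 0.319 and 0.448. The 10 genes with the highest FPKM in blank hearts were the same by counts per kilobase of nuclear counts, and without each blank heart in turn 9 or 10 of them remained. For some genes with few counts, such as Kcna4, the 95% interval reached past 1.5-fold, so that changes beyond that size were not excluded for them. No paired analysis was possible because the groups share no mouse number. Mouse numbers ran from 26 to 36 in blank, from 7 to 21 in PLCβ1a and from 4 to 17 in PLCβ1b hearts. The index in the sample titles also ran in separate blocks for the 3 groups. Anything tied to that index cannot be told apart from the vector. Likewise, anything tied to mouse number cannot be told apart from blank against PLC.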
